A study of Mus musculus with 22 samples.

Results

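The Notch and segmentation clock genes described here are 10 genes chosen by symbol: Dll1, Dll3, Notch1, Lfng, Hes1, Hes7, Nrarp, Mesp2, Ripply1 and Ripply2. All 10 were found among the 55055 genes present in every count table, and each was followed through the 10 groups of the study. The cells were mouse embryonic stem (mES) cells, wild type or labelled Hox-/-, a line described as lacking all Hox function and named BADC in the sample titles. RNA was sequenced from undifferentiated cells (2 libraries per genotype), grown in LIF at 100 ng/ml with a MEK inhibitor at 1 µM and CHIR99021, which blocks GSK-3, at 3 µM, and from flat endoderm cultures treated with 100 ng/ml Activin A plus 3 µM CHIR99021 and collected at 120 h (3 libraries per genotype). It was also sequenced from gastruloids, aggregates of mES cells that model the elongating embryo. Activin A gastruloids were made from both genotypes and Chiron gastruloids, named for the GSK-3 inhibitor, from wild type alone, each collected at 96 h and at 120 h in duplicate libraries. Neither gastruloid doses nor clone numbers appear in the labels, so genotype and cell line cannot be told apart, and there was no Hox-/- Chiron group.

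Notch signalling passes between touching cells. Delta ligands on one cell bind a Notch receptor on the next, the receptor is cut, and its inner part joins the DNA-binding protein RBPJ to switch on targets such as the Hes repressors and Nrarp. In the presomitic mesoderm, the tissue from which somites form, this pathway runs as an oscillator, the segmentation clock: Hes7 represses itself and Lfng in each cycle, Dll3 acts on Notch within the cell, and at the front of the tissue Mesp2 sets the next somite boundary while Ripply1 and Ripply2 shut Mesp2 down. A bulk library averages over cells in every phase of the cycle, so the values below are mean levels and not amplitudes.

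Upstream sequences of Lfng, Hes7 and Nrarp are shown because their windows held matches to the RBPJ or E-box letters. The windows come from RefSeq (GRCm38.p6), which matched 9 of the 10 genes (Hes1 was not matched), and the letters searched on both strands were the RBPJ core TGGGAA (reverse TTCCCA), its longer form GTGGGAA, the E-box CACGTG and the T-box half-site AGGTGT. Each window of 300 bases runs from 250 bases before the transcript start to 50 bases after it, and its first 200 bases are printed, with matches to the RBPJ core and the E-box, on either strand, in capitals: chr5:140607091-140607290 (plus strand) for Lfng, chr11:69120203-69120402 (plus strand) for Hes7 and chr2:25180508-25180707 (plus strand) for Nrarp.
Lfng: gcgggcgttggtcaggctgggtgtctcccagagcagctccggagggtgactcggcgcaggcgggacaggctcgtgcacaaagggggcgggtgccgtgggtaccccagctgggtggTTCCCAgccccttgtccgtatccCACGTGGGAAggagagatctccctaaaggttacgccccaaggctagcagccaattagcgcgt
Hes7: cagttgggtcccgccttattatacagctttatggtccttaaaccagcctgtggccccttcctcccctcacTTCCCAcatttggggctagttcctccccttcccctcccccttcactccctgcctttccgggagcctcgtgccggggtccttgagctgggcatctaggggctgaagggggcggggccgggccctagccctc
Nrarp: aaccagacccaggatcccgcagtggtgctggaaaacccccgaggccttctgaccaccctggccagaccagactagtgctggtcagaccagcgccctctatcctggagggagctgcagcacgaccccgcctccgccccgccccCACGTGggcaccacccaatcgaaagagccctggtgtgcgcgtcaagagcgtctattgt
The RBPJ core was present in 2 of the 9 matched genes. Lfng held it 2 times, 135 and 108 bases before the start, and the site nearer to the start was the longer form and overlapped a CACGTG that begins 112 bases before the start. Hes7 held the longer form 1 time, on the minus strand, 180 bases before the start. Nrarp had CACGTG 108 bases before the start and no RBPJ core in its window, and Mesp2 had AGGTGT on the minus strand 29 bases after its start. Among 32851 RefSeq promoter windows of the same length, 25.6% held TGGGAA, 6.38% held GTGGGAA, 7.15% held CACGTG and 13.7% held AGGTGT. These matches describe letters and were not tested for binding.

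Libraries held 9108085 to 28819301 counts. Those of 120 h gastruloids held 9108085 to 11930416 and those of 96 h gastruloids 14953662 to 28819301, so time and depth go together in the gastruloids. Values are CPM, a gene's counts scaled to a common library total. Summed over the 39 Hox genes, wild-type libraries held 30.4 to 35.7 CPM in mES cells, 828 to 877 in endoderm cultures, and 625 to 660 and 1170 to 1190 in Activin A gastruloids at 96 h and 120 h. The Hox-/- libraries held 0.448 to 1.34, 22.5 to 28.6, 102 to 104 and 63.8 to 69.5 CPM in the same order. Between replicates the chi-square of gene counts, divided by its degrees of freedom, was 1.37 to 10.3 by group, above the value of 1 that counting error alone gives. The highest value belonged to the pair of 96 h Chiron libraries, and replicate 1 of that pair was the higher library for 9 of the 10 genes, all but Hes1. Nothing in the labels says that replicates came from separate cultures, so p-values measure the spread between these samples, which may be technical. A gene was called where edgeR's quasi-likelihood test gave a Benjamini-Hochberg adjusted p under 0.05 over all genes of the fit.

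In Activin A gastruloids at 120 h, 8 of the 10 genes were higher in Hox-/- (Dll1, Dll3, Notch1, Lfng, Hes7, Nrarp, Mesp2 and Ripply2), and Hes1 and Ripply1 were lower. Of all 16831 genes tested in this comparison, 50.4% were called in either direction and 24.9% were called higher. The median log2 fold change was 2.18 over the 10 genes and -0.02 over all genes tested. In bulk libraries more cells of a type and more RNA per cell cannot be told apart. Under each alternative normalization, filter, test and left-out library, each of the 8 that could be tested stayed higher and called, while the Hes1 and Ripply1 calls were lost under several of them.

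**Figure D1:**
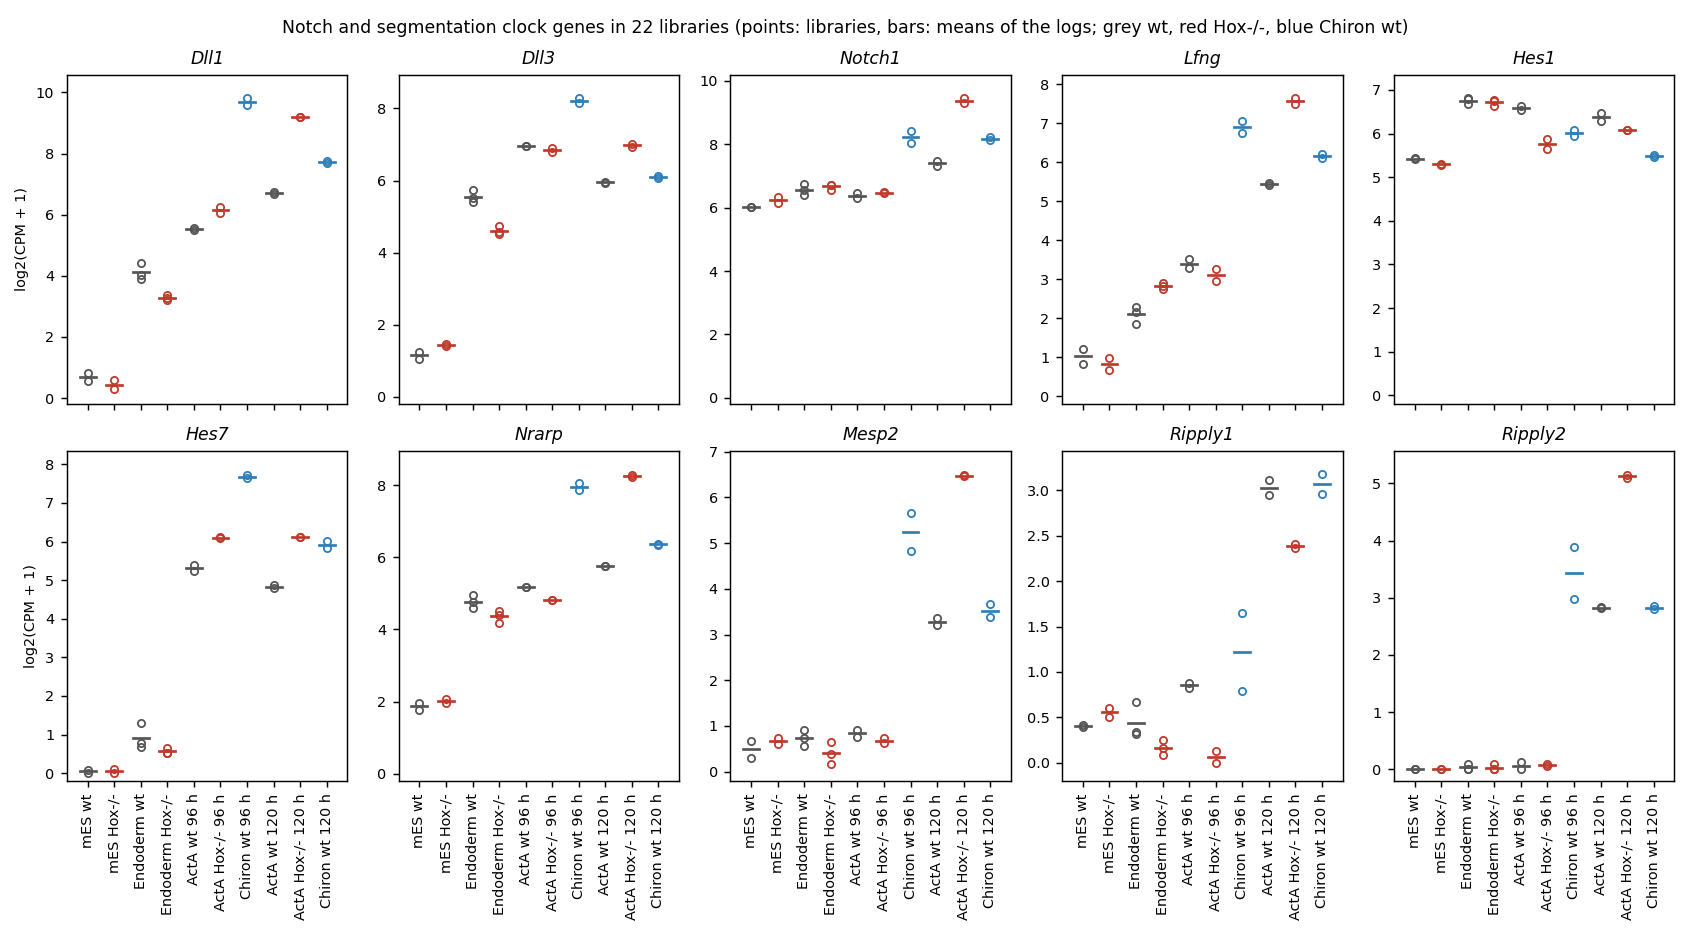
Level of each of the 10 genes in every library, as log2(CPM + 1), by group. Open circles are libraries and bars are means of the log values, with Hox-/- in red, Chiron wild type in blue and other wild-type groups in grey. In the 120 h Activin A groups the Hox-/- points lie above the wild-type points for 8 genes and below them for Hes1 and Ripply1.

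Dll1 is the ligand that activates Notch in the presomitic mesoderm. It stood at 102 and 105 CPM in wild-type Activin A gastruloids at 120 h and at 586 and 587 CPM in Hox-/-. The groups were far apart and the Hox-/- libraries nearly equal, with a 6.12-fold higher level in Hox-/- (log2 2.61 ± 0.0478 SE, edgeR adjusted p = 2.07e-41). Dll3, the ligand that acts inside the cell, was at 60.5 and 61.5 CPM in wild type and 127 and 122 CPM in Hox-/-. It showed the smallest rise of the 8, at 2.2-fold (log2 1.14 ± 0.0578, adjusted p = 1.04e-22). In the GENCODE vM21 annotation of GRCm38, Dll1 lies on chromosome 17 from 15367354 to 15376872 and is overlapped by a long noncoding RNA gene on the other strand, and Dll3 lies on chromosome 7 from 28293553 to 28302238. Dll3, Lfng (chromosome 5, 140607320 to 140615545), Hes1 (chromosome 16, 30064384 to 30067796), Mesp2 (chromosome 7, 79810727 to 79813439), Ripply1 (chromosome X, 139779549 to 139782353) and Ripply2 (chromosome 9, 87015537 to 87019917) have no overlapping gene there.

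Notch1, the receptor, had 176 and 159 CPM in wild type at 120 h against 695 and 636 CPM in Hox-/-. That is a 4.29-fold difference (log2 2.10 ± 0.0484, edgeR adjusted p = 3.61e-37), many times the gap between replicates. Lfng, the glycosyltransferase that adds sugars to Notch and alters its response to ligands, had 43.3 and 41.6 CPM against 199 and 180 CPM. It was 4.82-fold higher in Hox-/- (log2 2.27 ± 0.0646, adjusted p = 3.44e-33). The ligand, the receptor and its modifier were thus higher in the same libraries.

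Nrarp encodes a small ankyrin-repeat protein that is induced by Notch and limits it. Its level was 52.7 and 53.1 CPM in wild type and 296 and 310 CPM in Hox-/-, a 6.18-fold difference (log2 2.63 ± 0.0520, edgeR adjusted p = 5.42e-40). Hes7, the clock's core repressor, had 26.7 and 28.3 CPM against 68.9 and 68.7 CPM, or 2.7-fold more in Hox-/- (log2 1.43 ± 0.0761, adjusted p = 6.69e-22). Hes1, a Hes repressor used in many tissues besides the clock, went the other way, from 88.3 and 77.2 CPM in wild type to 66.5 and 66.8 CPM in Hox-/-. Its log2 difference was -0.20 ± 0.0681 (adjusted p = 0.0111), and the call was lost without Hox-/- replicate 1 (adjusted p = 0.0708), Hox-/- replicate 2 (0.0649) or wild-type replicate 1 (0.38) of 120 h. Among these feedback genes the difference at 120 h was therefore large for Nrarp, intermediate for Hes7 and small, with the opposite sign, for Hes1. Nrarp (chromosome 2, 25180758 to 25183339) and Hes7 (chromosome 11, 69120404 to 69124055) each share their locus with 1 gene on the other strand, and whether the counting used strand is not given in the sources used here, so their counts and those of the partners cannot be told apart. Notch1 (chromosome 2, 26457903 to 26516663) has 2 such partners and a microRNA on its own strand, and the same holds for Dll1 and its partner.

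Mesp2, the transcription factor that positions the somite boundary, showed the largest genotype difference of the 10. It had 8.22 and 9.22 CPM in wild type at 120 h and 89 and 87.3 CPM in Hox-/-, a 10.9-fold higher level (log2 3.45 ± 0.0972, edgeR adjusted p = 2.33e-33). Ripply2, the repressor that ends Mesp2 expression, had 6.05 and 6.15 CPM against 34.5 and 33.1 CPM, 5.98-fold more in Hox-/- (log2 2.58 ± 0.139, adjusted p = 1.08e-21). Its relative Ripply1 was lower, at 6.7 and 7.69 CPM in wild type and 4.14 and 4.3 CPM in Hox-/-. The Ripply1 log2 difference was -0.66 ± 0.215 (adjusted p = 0.00892), and the call was lost without Hox-/- replicate 1 (adjusted p = 0.0655) or wild-type replicate 2 (0.0972) of 120 h. The 2 Ripply genes thus stood on opposite sides of zero at 120 h.

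**Figure D2:**
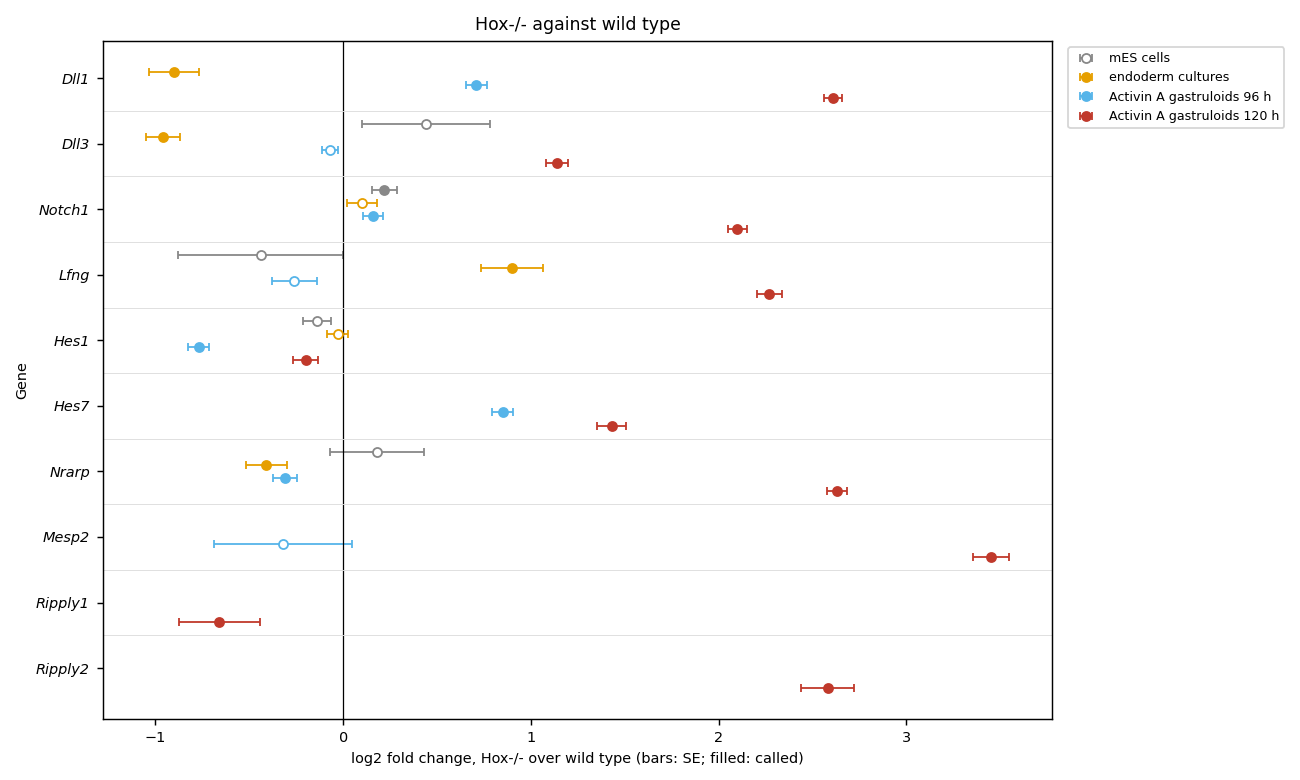
Log2 fold change of Hox-/- over wild type for each gene in mES cells, endoderm cultures and Activin A gastruloids at 96 h and 120 h. Bars are SE, filled points were called, and genes that were not tested or had a group at 3 counts or fewer per library are left out. The 120 h points of 8 genes lie to the right of 1, and those of Hes1 and Ripply1 lie left of 0.

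Levels can be set against each other per transcript length with FPKM, fragments scaled by transcript length and library size. In Hox-/- Activin A gastruloids at 120 h the order of FPKM began with Dll1 (134 and 136) and Nrarp (108 and 113), followed on mean FPKM by Lfng at 75.6, Notch1 at 59 and Ripply2 at 55.2. Mesp2 (42.8), Hes1 (41.5), Dll3 (39.4) and Hes7 (29.1) came next, and Ripply1 was lowest at 3.8. In wild type at the same time Hes1 led with 47.2, ahead of Dll1 at 21.9, Nrarp at 18.6 and Dll3 at 18.3. Hes1 thus led the 10 per length in wild type, while 6 of the others exceeded it in Hox-/-.

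At 96 h the same gastruloids differed in both directions: 3 of the 10 genes were called higher in Hox-/-, 3 lower and 4 neither way, where 38.9% of the 16831 genes tested were called. Hes7 was at 41.1 and 36.9 CPM in wild type and 66.9 and 68.6 CPM in Hox-/-, 1.8-fold higher (log2 0.85 ± 0.0549, edgeR adjusted p = 2.25e-18). Dll1 was at 46.2 and 43.9 CPM against 75.1 and 65.5 CPM, 1.63-fold higher (log2 0.71 ± 0.0543, adjusted p = 1.37e-15). The clock repressor and the ligand were thus already higher at 96 h. Notch1 differed by log2 0.16 (adjusted p = 0.0129), a call that was lost without Hox-/- replicate 1 (adjusted p = 0.0947) or wild-type replicate 2 (0.363) of 96 h.

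The genes that were lower at 96 h were Hes1, Nrarp and Ripply1. Hes1 had 92.7 and 97.6 CPM in wild type and 57.9 and 49 CPM in Hox-/-, a 1.7-fold lower level (log2 -0.77 ± 0.0559, edgeR adjusted p = 2.12e-16). Nrarp had 35.5 and 35.2 CPM against 27.4 in both Hox-/- libraries (log2 -0.31 ± 0.0624, adjusted p = 5.22e-05). Ripply1 had 19 and 20 counts in the wild-type libraries and 2 and 0 in Hox-/-, where it was at the floor of 3 counts per library, and was at least 4.75-fold lower. Lfng, at 8.8 and 10.4 CPM against 8.56 and 6.75, had a log2 difference of -0.26 (adjusted p = 0.085) that was called without Hox-/- replicate 1 (-0.46, adjusted p = 0.0194) or wild-type replicate 1 (-0.37, adjusted p = 0.0285). Dll3 (124 and 123 against 110 and 118 CPM) and Mesp2 (0.889 and 0.698 against 0.655 and 0.535 CPM) were not called, and Ripply2 held 2 counts or fewer in each of the 4 libraries. Nrarp thus changed sign between the times, from 1.24-fold lower to 6.18-fold higher.

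Between 96 h and 120 h, 9 of the 10 genes rose in Hox-/- Activin A gastruloids (72.4% of genes called, 34.9% called higher), and Hes7 had log2 0.01 ± 0.0572. With limma on log2(FPKM + 1) Hes7 was lower in Hox-/- at 120 h (-0.20, adjusted p = 0.0417), and the Hes1 (0.0672) and Dll3 (0.122) rises were not called. In wild type 7 of the 10 rose and Dll3, Hes1 and Hes7 fell (74.9% called, 37.2% called higher). Mesp2 and Ripply2 were very low at 96 h and passed the expression filter through the 120 h libraries. The filter thus favoured a rise for them. With at least 10 counts required in every library, 5 genes were called in Hox-/-. Mesp2 rose 142-fold in Hox-/-, from 0.655 and 0.535 to 89 and 87.3 CPM, and 10.4-fold in wild type, from 0.889 and 0.698 to 8.22 and 9.22 CPM. Lfng rose 24-fold in Hox-/- and 4.17-fold in wild type, Nrarp 10.9-fold and 1.42-fold, Dll1 8.18-fold and 2.18-fold, and Notch1 7.48-fold and 1.95-fold. For these 5 genes the rise was thus larger in Hox-/-.

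The boundary genes began this interval at or near zero. Ripply2 rose at least 198-fold in Hox-/- and at least 48.9-fold in wild type, both against the floor of 3 counts per library, and Ripply1 rose at least 24.8-fold in Hox-/- and 8.38-fold in wild type. Dll3 went the other way in wild type, falling from 124 and 123 to 60.5 and 61.5 CPM, and was nearly level in Hox-/-, where its rise of log2 0.12 was not called without Hox-/- replicate 1 of 96 h (adjusted p = 0.399) or of 120 h (0.231). Hes7 fell 1.49-fold in wild type, from 41.1 and 36.9 to 26.7 and 28.3 CPM, and stayed between 66.9 and 68.9 CPM in the 4 Hox-/- libraries. Hes1 fell by 0.28 in wild type and rose by 0.29 in Hox-/- on the log2 scale. Marker sums also moved with time, where 72.4% of all genes were called in Hox-/- and 74.9% in wild type. In Hox-/- the pluripotency markers went from 883 to 902 CPM at 96 h to 19.5 to 20.8 at 120 h (4 of 6 lower, 1 higher, Zfp42 at the floor). The caudal markers there went from 3650 to 3690 to 514 to 528 (5 of 6 lower, 1 higher). In wild type these sums went from 1040 to 1060 to 75.2 to 76 and from 2860 to 2970 to 654 to 658, and their part in the time results was not tested.

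The difference between the time courses was tested as an interaction. In 9 of the 10 genes the log2 change from 96 h to 120 h was greater in Hox-/- than in wild type, where 38.9% of all genes were called and 18.7% were called in that direction. The interaction was 3.77 ± 0.393 (SE, log2 units) for Mesp2 (edgeR adjusted p = 3.36e-11), 2.94 ± 0.0819 for Nrarp (8.82e-33), 2.52 ± 0.136 for Lfng (3.99e-21), 1.94 ± 0.0719 for Notch1 (1.3e-27) and 1.91 ± 0.0732 for Dll1 (4.94e-27). Mesp2 held only 8 to 20 counts per library at 96 h and passed the filter through the 120 h libraries, so the size of its interaction is uncertain. Ripply2 was not called with edgeR (adjusted p = 0.28) and was called with limma on log2(FPKM + 1) (2.51, adjusted p = 0.000738), and both of its 96 h groups were at the floor. Ripply1, with 2.99, was called, but its 96 h Hox-/- group was at the floor, so that value is no measure of size, and limma on log2(FPKM + 1) gave 0 (adjusted p = 0.992). Hes1 and Hes7, with 0.56 and 0.58, had the smallest called interactions. For Hes7 the genotype gap was already present at 96 h, and for Hes1 the gap narrowed.

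**Figure D3:**
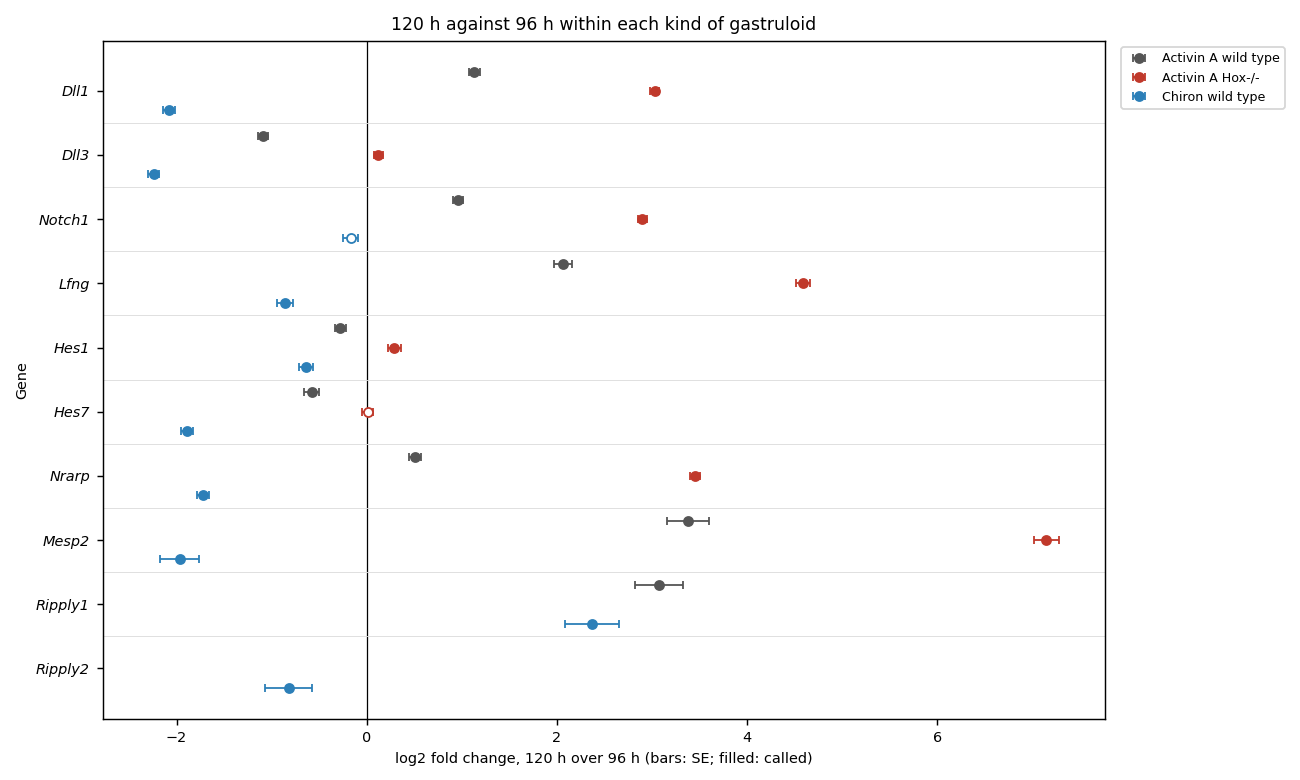
Log2 fold change from 96 h to 120 h in wild-type Activin A, Hox-/- Activin A and wild-type Chiron gastruloids. Bars are SE, filled points were called, and comparisons with a group at 3 counts or fewer per library are left out. Hox-/- points lie right of the wild-type Activin A points for every gene that has both, and all Chiron points other than Ripply1 lie left of 0.

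Chiron gastruloids of wild type had much higher levels at 96 h than Activin A gastruloids. Activin A was lower in 8 of the 10 genes (61.6% of 17305 genes called, 30.2% called lower), Hes1 was higher and Ripply1 was not called. Dll1 was at 892 and 767 CPM in Chiron libraries and 46.2 and 43.9 CPM in Activin A, 19.2-fold lower in Activin A (log2 -4.27 ± 0.0659, edgeR adjusted p = 6.85e-24). Lfng was at 132 and 107 CPM against 8.8 and 10.4, Nrarp at 266 and 231 against 35.5 and 35.2, and Hes7 at 210 and 199 against 41.1 and 36.9. These were 12.9-fold, 7.33-fold and 5.48-fold lower in Activin A. Notch1, at 339 and 264 CPM in Chiron, was 3.85-fold lower in Activin A, and Dll3, at 309 and 281, was 2.49-fold lower. Hes1 alone was higher in Activin A, at 92.7 and 97.6 CPM against 60.3 and 66.3, by 1.44-fold (log2 0.52 ± 0.0618, adjusted p = 1.2e-07).

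The boundary genes differed between the 96 h Chiron libraries. Mesp2 had 49.7 CPM in replicate 1 and 27.2 in replicate 2, Ripply2 13.8 and 6.87, and Ripply1 2.14 and 0.729. Mesp2 was 49.8-fold lower in Activin A (log2 -5.64 ± 0.28, edgeR adjusted p = 1.66e-14), with -5.13 without Chiron replicate 1 and -6.00 without replicate 2. Ripply2 was at least 82.7-fold lower in Activin A, where it was at the floor, and was called without either Chiron library (adjusted p = 1.13e-19 and 7.15e-24). Ripply1 differed by log2 -0.78 (adjusted p = 0.0781), by 0.12 without Chiron replicate 1 (adjusted p = 0.814) and by -1.43 without replicate 2 (adjusted p = 0.000232), so its direction at 96 h rests on 1 library.

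At 120 h wild-type Activin A was lower than Chiron in 6 of the 10 genes (41.9% of genes called, 21.6% called lower), Hes1 was higher and the 3 boundary genes were not called. Dll1 was 2.11-fold lower, at 102 and 105 CPM against 208 and 213 (log2 -1.08 ± 0.0665, edgeR adjusted p = 4.36e-12), and Hes7 was 2.24-fold lower, at 26.7 and 28.3 against 55.9 and 63.4 (adjusted p = 1.37e-10). Notch1, Lfng and Nrarp were 1.78-fold, 1.73-fold and 1.59-fold lower. The Dll3 difference of log2 -0.19 (adjusted p = 0.0347) was not called without any 1 of the 4 libraries (adjusted p = 0.165 and 0.107 without Activin A replicates 1 and 2, 0.079 and 0.118 without Chiron replicates 1 and 2). Hes1 was 1.83-fold higher in Activin A, at 88.3 and 77.2 CPM against 42.9 and 44.6. Mesp2 (8.22 and 9.22 against 9.39 and 11.7 CPM), Ripply1 (6.7 and 7.69 against 8.05 and 6.79 CPM) and Ripply2 (6.05 and 6.15 against 5.95 and 6.26 CPM) had log2 differences of -0.31 ± 0.298, -0.11 ± 0.25 and -0.05 ± 0.308.

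Within the Chiron series the genes fell: 8 of the 10 were lower at 120 h than at 96 h (61.7% of genes called, 33.2% called lower), Ripply1 was higher and Notch1 was not called. Dll3 fell 4.73-fold, from 309 and 281 to 65.9 and 68.3 CPM, Dll1 4.24-fold, Hes7 3.7-fold and Nrarp 3.29-fold. Mesp2 fell 3.91-fold, and its log2 change was -1.97 with both 96 h libraries, -1.46 without replicate 1 and -2.33 without replicate 2. Ripply2 had a log2 change of -0.82 (edgeR adjusted p = 0.0058), which was -0.25 (adjusted p = 0.252) without 96 h replicate 1, -1.25 without replicate 2 and not called without 120 h replicate 1 (-0.81, adjusted p = 0.064) or with limma on log2(FPKM + 1) (-0.68, adjusted p = 0.162). Ripply1 rose 5.18-fold, to 8.05 and 6.79 CPM (log2 2.37 ± 0.283, adjusted p = 1.37e-07), with log2 3.27 without 96 h replicate 1 and 1.72 without replicate 2. Notch1 had -0.17 (adjusted p = 0.0713), which was called without 96 h replicate 2 (-0.31, adjusted p = 1.03e-05) and was 0.06 without replicate 1. Ripply1 was thus the only gene of the 10 that was called higher at 120 h in these gastruloids.

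The treatments' time courses differed in 9 of the 10 genes, each with a more positive change in Activin A (39.6% of genes called, 21.7% called in that direction). The 9 include Ripply2, whose 96 h Activin A group was at the floor of 3 counts per library. Mesp2 held 18 to 20 counts per library in that group. The interaction was 5.33 ± 0.473 for Mesp2 (edgeR adjusted p = 3.43e-09), 3.19 ± 0.0923 for Dll1 (6.14e-18), 2.90 ± 0.143 for Lfng (8.12e-14) and 2.21 ± 0.1 for Nrarp (1.94e-14). Hes1, with 0.35 ± 0.0997 (adjusted p = 0.0075), was not called without Activin A replicate 1 of 120 h (adjusted p = 0.0808) or of 96 h (0.0527). Ripply1, at 0.68 (adjusted p = 0.252), was called without 96 h Chiron replicate 2 (1.34, adjusted p = 0.00316) and had -0.21 without replicate 1.

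**Figure D4:**
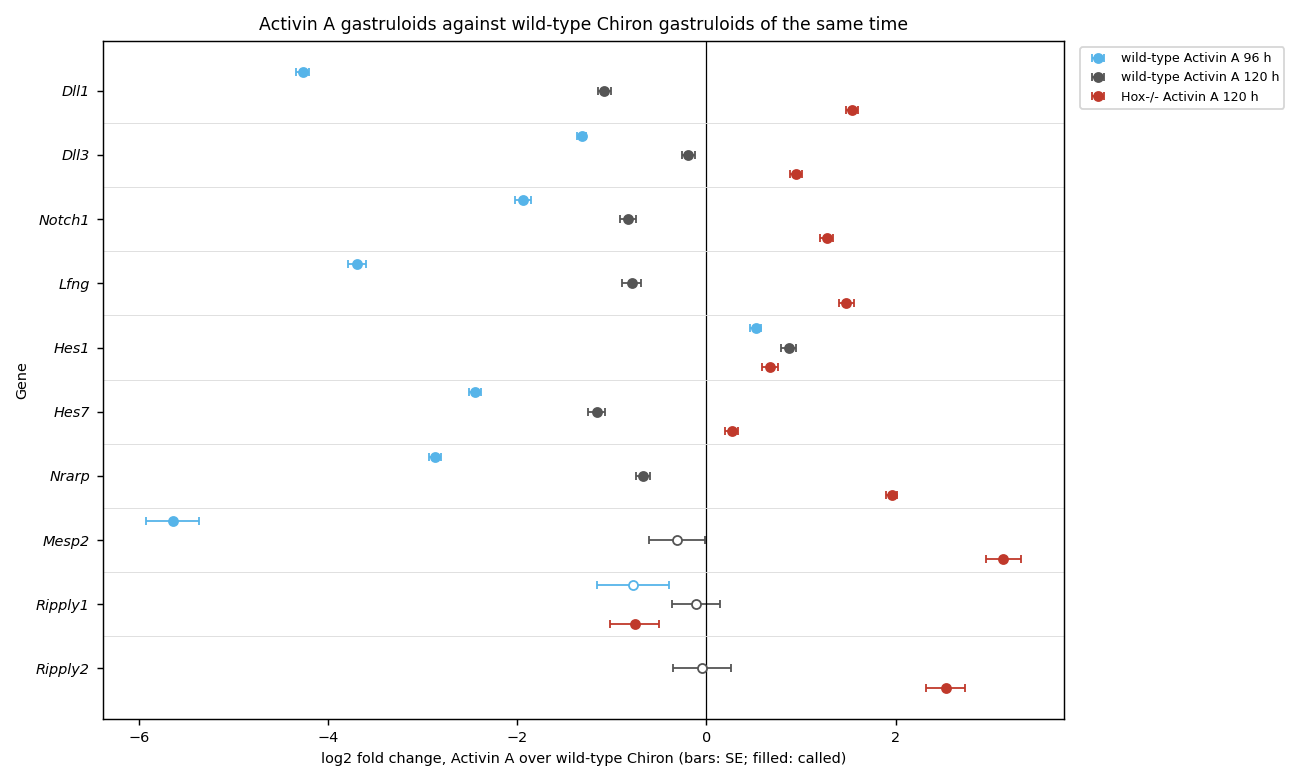
Log2 fold change of Activin A over wild-type Chiron gastruloids of the same time, for wild-type Activin A at 96 h and 120 h and for Hox-/- Activin A at 120 h. Bars are SE, filled points were called, and comparisons with a group at 3 counts or fewer per library are left out. Wild-type Activin A points lie left of 0 except those of Hes1, and Hox-/- points at 120 h lie right of 0 except that of Ripply1.

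Hox-/- Activin A gastruloids at 120 h also exceeded wild-type Chiron gastruloids of the same time, a comparison in which genotype and treatment differ together. Of the 10 genes, 9 were higher and Ripply1 was lower (43.7% of 17235 genes called, 21.7% called higher). Mesp2 was 8.83-fold higher, at 89 and 87.3 CPM against 9.39 and 11.7 (log2 3.14 ± 0.181, edgeR adjusted p = 3.81e-15). Ripply2 was 5.79-fold, Nrarp 3.9-fold, Dll1 2.91-fold, Lfng 2.79-fold, Notch1 2.41-fold, Dll3 1.94-fold and Hes1 1.59-fold higher. Hes7 was 1.21-fold higher, which was not called without Chiron replicate 1 (adjusted p = 0.0813). Ripply1 had log2 -0.76 (adjusted p = 0.0158), not called without Hox-/- replicate 1 (0.0901), Hox-/- replicate 2 (0.0615) or Chiron replicate 1 (0.165). Hes1 was the one gene that was higher in both genotypes of Activin A gastruloids than in Chiron gastruloids at 120 h.

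The genotype and treatment comparisons share the wild-type Activin A libraries, so their values stand side by side without a count of matches. Over all groups, the highest mean lay in Hox-/- Activin A gastruloids at 120 h for 5 genes (Notch1, Lfng, Nrarp, Mesp2 and Ripply2) and in Chiron gastruloids at 96 h for 3 (Dll1, Dll3 and Hes7). For each of these 8 genes these groups had the first and second highest means, and their libraries did not overlap. The share of all genes with the same highest groups, or without overlap between them, is not given here. The counts therefore do not show that this order is particular to the genes followed here. For Dll3 the second rank is a tie, since Hox-/- Activin A at 120 h (127 and 122 CPM) overlapped wild-type Activin A at 96 h (124 and 123 CPM). For Hes7 it is nearly a tie, with Hox-/- Activin A at 68.9 and 68.7 CPM at 120 h and 66.9 and 68.6 at 96 h. On mean FPKM that Hes7 order reverses, with 29.1 at 120 h and 33.7 at 96 h. Dll1 was 829 ± 88.6 CPM (SD, n = 2) in 96 h Chiron and 586 ± 0.69 in 120 h Hox-/- Activin A. For Notch1 the libraries of the second-ranked group, 96 h Chiron (339 and 264 CPM), overlapped those of 120 h Chiron (298 and 279 CPM). Ripply1 was highest in 120 h Chiron and wild-type Activin A gastruloids, whose libraries overlapped, and Hes1 was highest in the endoderm cultures of both genotypes, which overlapped too.

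In mES cells most of the 10 genes were close to the limit of detection. Ripply2 had 0 counts in all 4 libraries, which allows up to 3 counts per library, and Hes7 had 0 or 1. Dll1, Mesp2 and Ripply1 had 10 counts or fewer in each library, and the 5 genes that were tested were Dll3, Notch1, Lfng, Hes1 and Nrarp. Notch1 had 64.3 and 63.3 CPM in wild type and 79.5 and 69.7 CPM in Hox-/- and was the 1 gene called of the 5 (log2 0.22 ± 0.0659, edgeR adjusted p = 0.0117; 23.2% of 13631 genes called). That call was lost without wild-type replicate 1 (adjusted p = 0.0826), wild-type replicate 2 (0.131) or Hox-/- replicate 1 (0.237). Hes1 was at 41.5 and 42.6 CPM against 38.6 and 38 CPM (adjusted p = 0.196). Dll3 (1.09 to 1.76 CPM over the 4 libraries), Lfng (0.588 to 1.33 CPM) and Nrarp (2.41 to 3.21 CPM) were not called.

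All 7 genes that could be tested were higher in endoderm cultures than in mES cells. This held in wild type (79.9% of 16251 genes called, 41.6% called higher) and in Hox-/- (80.6% called, 42.7% called higher). Dll1 and Hes7 were too low to test within mES cells. They passed the filter through the endoderm libraries, so the filter favoured a higher level there. Dll3 was 33.8-fold higher in wild type and 13-fold in Hox-/-, Dll1 24.6-fold and 22.8-fold, Nrarp 9.02-fold and 6.08-fold, Lfng 2.83-fold and 7.31-fold, and Hes1 2.36-fold and 2.58-fold. Notch1 was 1.36-fold and 1.27-fold higher, and Hes7, against a floor in mES cells, was at least 4.29-fold and 2.02-fold higher. The Hes7 call in Hox-/- was lost without mES replicate 2 of that genotype (adjusted p = 0.063). Mesp2 (0.123 to 0.875 CPM), Ripply1 (0.0568 to 0.584 CPM) and Ripply2 (0 to 0.0729 CPM) were not tested in the endoderm cultures. In Hox-/-, Ripply1 was at the floor in endoderm (0.0568 to 0.189 CPM), below its 0.42 to 0.523 CPM in mES cells. Mesp2 averaged 0.335 CPM in Hox-/- endoderm and 0.598 in Hox-/- mES cells, with overlapping libraries.

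Between genotypes 4 of 6 genes tested were called in the endoderm cultures, 3 lower and 1 higher in Hox-/- (46.2% of 14975 genes called). Dll1 had 20.4, 14 and 15.4 CPM in wild type and 8.75, 9.41 and 8.19 in Hox-/-, 1.86-fold lower (log2 -0.90 ± 0.132, edgeR adjusted p = 7.43e-05). Dll3 had 45.1, 41.5 and 52.1 CPM against 25.7, 22 and 22.9, 1.95-fold lower (log2 -0.96 ± 0.0906, adjusted p = 9.89e-07), and Nrarp had 25.9, 23 and 30.2 against 21.6, 17.2 and 20.1, 1.33-fold lower (adjusted p = 0.00652). The Nrarp call was lost with limma (adjusted p = 0.199 on log2(FPKM + 1) and 0.112 on log2(FPKM + 0.1)). Lfng was higher in Hox-/-, at 6.53, 5.78 and 6.17 CPM against 3.49, 2.64 and 3.87, by 1.87-fold (adjusted p = 0.000488). None of these 4 genes overlapped between genotypes, and the share of all genes without overlap is not given here. Hes7 (0.73, 0.594 and 1.46 CPM against 0.568, 0.431 and 0.441 CPM) and Ripply1 (0.243, 0.264 and 0.584 against 0.0568, 0.123 and 0.189 CPM) did not overlap either and were not tested. Hes1 (101, 109 and 111 against 107, 97.9 and 108 CPM) and Notch1 (93.3, 82.6 and 107 against 105, 105 and 92.3 CPM) overlapped and were not called. Notch1 was called only without wild-type replicate 3 among the left-out libraries (log2 0.21, adjusted p = 0.0217). Compared with the genotype difference in mES cells, that in endoderm differed for Dll3 (interaction -1.37 ± 0.36, adjusted p = 0.0084) and Lfng (1.37 ± 0.457, adjusted p = 0.0348), 2 of 7 genes tested where 24.1% of all genes were called. The Dll3 interaction was lost without Hox-/- mES replicate 2 (adjusted p = 0.0501), and that of Lfng without the same library (0.162), wild-type mES replicate 1 (0.346), wild-type endoderm replicate 2 (0.0642) or Hox-/- endoderm replicate 1 (0.053).

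The other genes of the pathway were followed through lists in the same fits, beginning with the 120 h genotype comparison, where 50.4% of all genes were called. Of the 6 other Notch ligands and receptors, 4 were higher in Hox-/- and 1 lower, with a median log2 difference of 0.38. Notch3 had 306 to 324 CPM against 212 to 215 in wild type (log2 0.67) and Notch4, a receptor of endothelial cells, 36.8 to 39.3 against 12.4 to 13.7 (log2 1.65), while the ligand Jag2 had 6.55 to 7.11 against 13.3 to 14.9 (log2 -0.94). Of 17 genes for receptor processing and the nuclear complex, 9 were higher and 5 lower, with a median of 0.13. The coactivators Maml2 and Maml3 were higher, by log2 1.48 and 0.95, and Mfng and Rfng, the relatives of Lfng, were lower, by log2 -1.35 and -0.48. Lfng was thus higher and both other fringe enzymes were lower in these libraries.

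Of the 7 other Hes and Hey genes, 6 were tested at 120 h, of which 2 were higher in Hox-/- and 1 lower, a share near that of all genes. Hey1 had 203 to 216 CPM against 77.4 to 82.7 (log2 1.5, edgeR adjusted p = 3.88e-29) and Heyl, a Notch target of somites, 58 to 58.4 against 13.5 to 13.6 (log2 2.21, adjusted p = 4.86e-25), while Hey2 had 6.38 to 7.48 against 13.6 to 14.2 (log2 -0.89). Among 12 other presomitic and somite genes 9 were higher and 2 lower, with a median of 1.16. Tbx6, the T-box factor that makes presomitic mesoderm and activates Mesp2, had 102 to 105 CPM against 17.1 to 18.5 (log2 2.65), and Epha4, an Eph receptor at the somite boundary, 134 to 139 against 47.1 to 49.1 (log2 1.61). Ripply3 and Tbx18 were lower, by log2 -2.17 and -1.14. Of 10 Wnt and FGF genes of the clock 5 were higher and 2 lower (median 0.29), led by the Wnt target Axin2 at 170 to 173 CPM against 50 to 50.6 (log2 1.88) and by Snai1 (log2 1.69), while the Wnt inhibitor Dkk1 was at 4.21 to 6.29 against 56.1 to 57 (log2 -3.30) and Dusp6 at log2 -0.21, both lower. The median over all genes was -0.02 in this comparison.

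**Figure D5:**
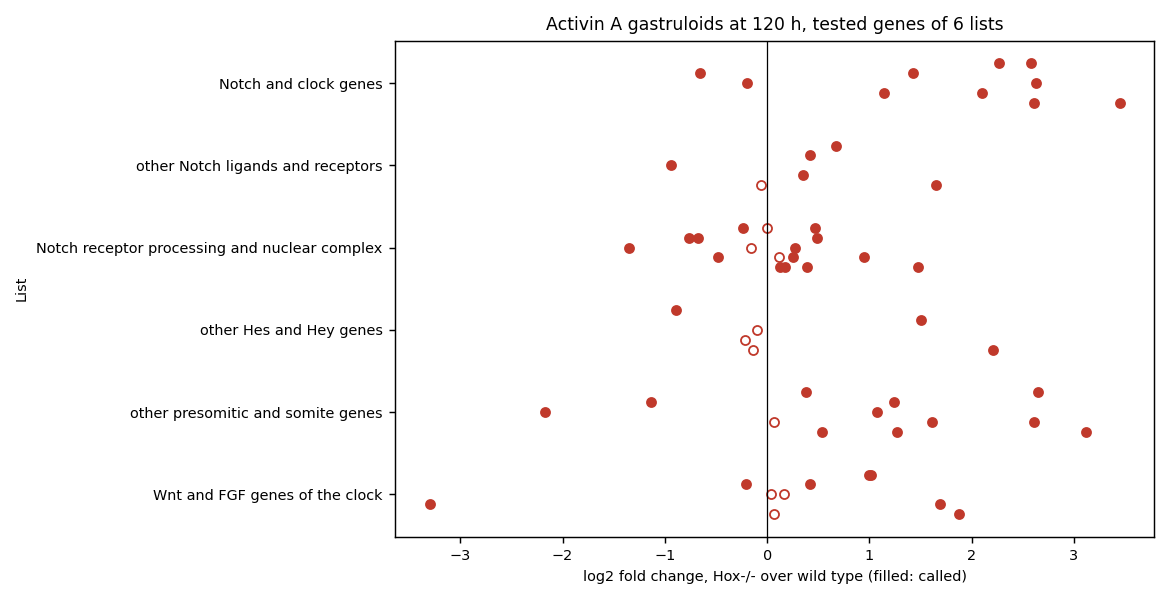
Log2 fold change of Hox-/- over wild type in Activin A gastruloids at 120 h for every tested gene of 6 lists, 1 point per gene, with filled points called. The vertical offsets within a list only separate points. The 10 Notch and clock genes and the other presomitic and somite genes have medians of 2.18 and 1.16, and the Notch processing list has a median of 0.13.

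At 96 h the presomitic and somite list was mostly lower in Hox-/- (1 of 12 higher, 7 lower, median -0.43), where 38.9% of all genes were called. Msgn1, an early presomitic gene, was higher, at 114 to 121 CPM against 72.9 to 77.2 (log2 0.70), while Aldh1a2, the retinoic acid enzyme of somites, was lower at 16.7 to 19.1 against 54.1 to 55.8 (log2 -1.55), as was Meox1 (log2 -2.45). Of the other ligands and receptors 1 was higher and 2 lower, among them Jag1 at 24.3 to 24.9 against 62 to 66.1 CPM (log2 -1.33). Of the other Hes and Hey genes 1 was higher (Hes6, log2 0.36) and 1 lower (Hey1, log2 -0.86). Hey1, like Nrarp, was thus lower at 96 h and higher at 120 h in Hox-/-.

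Against Chiron gastruloids at 96 h, 11 of the 12 presomitic and somite genes were lower in wild-type Activin A, with a median of -2.26, where 61.6% of all genes were called. Tbx6 was at 37.4 to 42.3 CPM in Activin A and 366 to 398 in Chiron (log2 -3.32), and Foxc1 at 5.51 to 6.63 against 102 to 138 (log2 -4.35). Of the other Hes and Hey genes 5 were lower and Hes6 was higher, with Hes5 at 0.194 to 0.578 CPM against 23.7 to 25.2. The other ligands and receptors went the other way, with 4 of 6 higher in Activin A and none lower, Jag1 at log2 1.25 among them. At 120 h, where 41.9% of all genes were called, the presomitic list had 3 higher and 6 lower (median -0.36), and Uncx, a gene of the posterior somite, was at 11.2 to 11.9 CPM against 74.2 to 77.9 (log2 -2.77).

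Markers of other cell types also moved with genotype in the 120 h Activin A libraries, where 50.4% of all genes were called. The 6 definitive endoderm markers summed to 394 to 407 CPM in wild type and 149 to 153 in Hox-/-, with 5 of 6 lower, Foxa2 (log2 -4.92) and Sox17 (log2 -3.80) among them. In Hox-/- Foxa2 was at 1.87 to 1.98 CPM and Sox17 at 2.9 to 4.65 CPM, so other markers made up most of that sum. The 6 pluripotency markers summed to 75.2 to 76 against 19.5 to 20.8 CPM (4 of 6 lower, 1 higher, and Zfp42 at the floor in Hox-/-). The 6 caudal progenitor markers summed to 654 to 658 against 514 to 528 (3 higher, 2 lower), the endothelial markers to 34.2 to 39.4 against 58.5 to 59.9 (4 higher, Emcn at the floor in Hox-/-) and the cardiac markers to 21.4 to 23.6 against 11.4 to 12.2 (4 lower, Hand2 at the floor in Hox-/-). Of neural markers, Pax6 had 0.517 to 0.561 CPM in Hox-/- against 9.55 to 11.6 (log2 -4.16), Sox1 3.97 to 5.99 against 11.8 to 14.4 (log2 -1.29) and Tubb3 10.2 to 10.5 against 7.24 to 7.25 (log2 0.62). The 12 other presomitic and somite genes summed to 744 to 765 CPM in wild type and 1370 to 1380 in Hox-/-. The part of these shifts in the results for the 10 genes was not tested. The label of the endoderm cultures was checked in the same way. Their endoderm markers summed to 114 to 126 CPM in wild type and 52.7 to 61 in Hox-/-, with none of the 6 at the floor, and their pluripotency markers to 720 to 844 and 209 to 228 CPM. Caudal progenitor markers summed to 459 to 513 CPM in wild type and 564 to 619 in Hox-/-, above the endoderm markers. Cardiac markers summed to 101 to 106 and 41.8 to 45 CPM. These sums do not settle the label. The neuronal gene Tubb3, chosen here after its values were seen, had 4.38 to 5.54 CPM in wild-type and 35.8 to 45.8 in Hox-/- endoderm cultures. These marker differences run alongside the endoderm genotype results above, and their part in them was not tested.

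At 96 h the endoderm markers differed more between genotypes, at 397 to 451 CPM in wild-type Activin A gastruloids and 28.6 to 32.4 in Hox-/-, and the caudal markers summed to 2860 to 2970 against 3650 to 3690. In Chiron libraries of 96 h the endoderm markers summed to 117 to 156 CPM and the pluripotency markers to 204 to 276, against 1040 to 1060 in wild-type Activin A. Most of that Chiron endoderm sum was Cxcr4 (96 to 106 CPM), the 1 endoderm marker that was lower in Activin A. Foxa2 was at 1.51 to 1.67 CPM and Sox17 at 1.17 to 1.7 CPM in those Chiron libraries. At 120 h the endoderm and pluripotency markers summed to 61.2 to 64.1 and 267 to 278 CPM in Chiron libraries, against 394 to 407 and 75.2 to 76 in wild-type and 149 to 153 and 19.5 to 20.8 in Hox-/- Activin A libraries. The part of these differences in the treatment results was not tested. Across the 10 group means of log2(CPM + 1), which share libraries and their depth between genes, 11 of the 36 pairs of members without Hes1 had a Pearson r above 0.9. The closest were Mesp2 with Ripply2 (r = 0.989) and Dll1 with Nrarp (r = 0.978), and the 9 pairs with Hes1 ranged from -0.0893 to 0.461. The share of all gene pairs above 0.9 was not computed, so the count of pairs does not show that the likeness is particular to the members. Among 13272 genes with a highest group mean of at least 5 CPM, the 3 most like each member included another member for 4 of them: Ripply2 for Notch1 (r = 0.971), Dll1 for Nrarp, and Mesp2 and Ripply2 for each other. On FPKM it was 2, Notch1 with Mesp2 and Mesp2 with Ripply2. Mesp2 and Ripply2 also shared Pglyrp3 (r = 0.996 and 0.992) as the most alike gene, Dll1 had Timm50 and Dach1 (r = 0.991 and 0.99) as its first and second, and Hes1 had Flt4, Foxq1 and Dkk1 (r = 0.948 to 0.957). These correlations over 10 groups describe likeness of levels and carry no test.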

How the data were processed

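Poly-A RNA from 22 libraries in 10 groups was prepared, per the labels' protocols, with the TruSeq Stranded mRNA kit. Per the submitters' processing notes, cutadapt 1.16, STAR 2.7.7a and Cufflinks 2.2.1 were used with mm10, and the counting's strand setting is not given in the sources used here. The authors deposited raw counts per gene and FPKM per gene. Symbols were joined to counts by gene ID. The 10 genes, the other lists and the alternatives were chosen with earlier results of these data known.

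Counts were tested with edgeR 4.0.16 (R 4.3.3; quasi-likelihood, filterByExpr, TMM, 1 coefficient per group) in 15 comparisons, with Benjamini-Hochberg adjustment over all genes of a fit and a threshold of 0.05. All groups of a count table shared 1 fit. Endoderm was joined with mES cells, and both Activin A genotypes with Chiron, on counts. FPKM tables of mES cells and endoderm were normalized separately and were not joined. A group was at the floor where every library had 3 counts or fewer, and folds against it are bounds from 3 counts per library, which cover counting error only. From each list the text names up to 2 called genes per direction with the smallest p. Likeness was Pearson r over group means of log2(CPM + 1). Alternatives were DESeq2 1.42.0, limma 3.58.1 on log2(FPKM + 1) or log2(FPKM + 0.1), other scalings and filters, thinned counts, a replicate block and each library left out. On simulated data with 200 genes changed 2-fold, 87% were recovered for the 96 h genotype comparison among 16098 genes, and 3.87% of calls were false. Over all fits, 76% to 94.5% were recovered and 1.14% to 5% of calls were false. The simulation gave every gene of a fit the same spread and changed no other genes, so it is simpler than the real libraries. The summed level of the neural marker list and 1 gene like Dll1 are not reported here.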

Additional observations from a re-analysis of the deposited data

Results flagged for a closer look

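Most values collected here are differences between time courses or between genotype effects that were tested as an interaction with edgeR's quasi-likelihood test, as described above. The log2 change from 96 h to 120 h in Activin A gastruloids was more positive in Hox-/- than in wild type by 1.91 for Dll1, 1.21 for Dll3, 1.94 for Notch1, 2.52 for Lfng, 0.56 for Hes1, 0.58 for Hes7, 2.94 for Nrarp and 3.77 for Mesp2. It was 2.99 for Ripply1, where the 96 h Hox-/- group was at the floor of 3 counts per library. Mesp2 held only 8 to 20 counts per library at 96 h in these gastruloids and passed the filter through the 120 h libraries.

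In wild type the same change was more positive in Activin A than in Chiron gastruloids by 3.19 for Dll1, 1.13 for Dll3, 1.11 for Notch1, 2.90 for Lfng, 0.35 for Hes1, 1.29 for Hes7, 2.21 for Nrarp and 5.33 for Mesp2. It was 7.70 for Ripply2, where the 96 h Activin A group was at the floor, so the value is no measure of size. It ranged from 6.7 to 10.38 with 1 library left out and was 3.98 at its lowest under the other settings. The Mesp2 value was 4.84 without 96 h Chiron replicate 1 and 5.71 without replicate 2. For Dll1, Lfng, Nrarp and Mesp2 the time course thus ran upward in Activin A and downward in Chiron gastruloids.

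Between endoderm cultures and mES cells the genotype effect differed by -1.37 for Dll3 and by 1.37 for Lfng, the ligand and the glycosyltransferase having opposite signs. These were 2 of 7 genes tested, near the 24.1% of all genes that were called. As given above, both calls depended on single libraries. Groups held 2 or 3 libraries, so no single library was tested as standing apart.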

How the results depend on the processing

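Of 1841 values of the 10 genes under the alternatives, 1727 kept their direction and their side of the threshold, 72 were no longer called, 16 became called and 26 changed sign. Among counts of all genes called, mES cells gave 3168 with edgeR, 1099 with DESeq2, 23 and 372 with limma on log2(FPKM + 1) and log2(FPKM + 0.1), and 1477 to 3372 with 1 library left out. Limma gave 4469 for endoderm (pseudocount 1), 2665 and 2787 for the 96 h genotype comparison (3647 with DESeq2), 4193 and 4264 for genotype by time, and 6670 with 0.1 for treatment at 96 h. Of the 10 genes, the count called in mES cells was 0 with DESeq2 and both limma fits and 0 to 1 with a library left out. With at least 10 counts in every library, which tests fewer genes, 5 were called for time in Hox-/- gastruloids, 4 for endoderm against mES cells in each genotype and 1 for genotype by differentiation (1 with DESeq2, 0 to 2 with a library left out).

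The values that changed sign were small or at low counts, and the cause was not tested. Hes7 over time in Hox-/- was -0.01 with RLE and DESeq2, -0.03 with the stricter filter, -0.20 and -0.21 with limma, -0.04 with thinned counts and -0.01 to 0.02 with a library left out. Ripply2 by genotype at 96 h was -0.16 and -0.88 with limma and -0.57 to 2.94 with a library left out, and its genotype by time value -0.35 to 3.15. Ripply2 by treatment at 120 h was 0 with library totals and 0.03 with thinned counts. Ripply1 was 0 with limma (pseudocount 1) for genotype by time and for treatment at 120 h. With a library left out, Ripply1 ranged from -0.23 to 0.04 for treatment at 120 h, -1.43 to 0.12 at 96 h and -0.21 to 1.34 for treatment by time. Likewise Notch1 ranged from -0.31 to 0.06 over time in Chiron, Lfng from -0.86 to 0.02 in mES cells and Hes1 from -0.08 to 0.02 in endoderm. For genotype by differentiation Dll1 ranged from -0.62 to 0.54, Hes7 from -3.45 to 1.5 and Notch1 from -0.19 to 0.01.

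Replicate numbers did not pair the samples: correlations of same-numbered deviations were -0.203, 0.209 and 0.00812 in endoderm and -0.0477 to 0.0849 elsewhere. With the replicate block, Notch1 over time in Chiron was -0.16 (edgeR adjusted p = 0.0119) and called, and the other 131 values kept their call. FPKM fits could not join endoderm with mES cells, and fits of only the compared groups give no interaction.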

Other observations

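These genes of the presomitic and receptor-processing lists fall outside the naming rule in the 120 h genotype comparison and were chosen after their values were seen. Mesp1, the neighbour and relative of Mesp2, had 18.8 to 20.9 CPM in Hox-/- Activin A gastruloids at 120 h and 2.2 to 2.7 CPM in wild type (log2 3.12 ± 0.188, edgeR adjusted p = 9.71e-20). At 96 h it had 2.01 to 2.1 CPM in Hox-/- and 1.96 to 2.44 CPM in wild type, and the groups overlapped. Msgn1 fell between the times in both genotypes, to 26.5 to 28.5 CPM in Hox-/- and 4.17 to 5.51 CPM in wild type at 120 h, where its log2 difference was 2.61 ± 0.138 (adjusted p = 5.96e-22). Rbpj, the DNA-binding partner of Notch, had 39.6 to 44.1 CPM in Hox-/- and 31.8 to 37 CPM in wild type at 120 h (log2 0.39 ± 0.0825, adjusted p = 7.67e-05).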
